A study of Mus musculus with 4 samples.

Results

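The 34 genes described here are interferon response genes, chosen by symbol and looked up in a table of 44509 named genes of mouse testis. They comprise 8 regulators of the response, 20 genes of the type I response and 6 GTPase genes that interferon gamma induces. All 34 had a row in the table. The testes came from mice made oligozoospermic with busulfan, an alkylating agent toxic to proliferating germ cells. In 2 samples this model was then treated with Cus-1, which the series title calls a resin glycoside from a cuscutae extract, and in the other 2 the model received busulfan alone. Every animal therefore carried the busulfan injury, and no untreated testis was part of the comparison. The sources used here give no strain, age, dose or time after busulfan. Whether samples came from different animals is also left unsaid, so p-values reflect the spread among 4 samples, part of which may be technical. The titles of the samples begin with CUS2 in the treated group and with BPA in the busulfan group, prefixes that the labels do not explain, and the grouping rests on the source label.

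Interferons are secreted proteins that warn cells of virus and other danger. Type I interferons bind the receptor made of IFNAR1 and IFNAR2, whose kinases JAK1 and TYK2 activate transcription factors, STAT2 among them. With IRF9 these bind a promoter element called ISRE, which turns on antiviral genes. Interferon gamma acts through IFNGR1 and IFNGR2, with JAK1 and JAK2, and acts on the GAS element, which drives IRF1 among others. It also induces the GTPases of the GBP and IRG families and, through Ciita, the class II presentation genes. In the testis, Sertoli cells, Leydig cells and macrophages are known to mount the response, while germ cells respond weakly.

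Abundance was given as FPKM, which scales fragment numbers by gene length and by library size. The summed FPKM lay between 726041 and 742689 in the 4 libraries, and the depth estimated from the steps between low values was 12.3 to 13.9 M (1e+06) fragments. Markers of testis cells were abundant in all libraries, the Leydig cell hormone gene Insl3 lying between 10265 and 22947 FPKM. The groups overlapped in 6276 of 19837 tested genes.

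Most interferon response genes lay lower in testes given Cus-1 after busulfan than in testes given busulfan alone, relative to all genes. Of the 34 genes, 26 had both Cus-1 values under both busulfan values, 1 had both above and 7 overlapped. Among all tested genes, 31.7% had both Cus-1 values under and 36.6% had both above. The 29 genes with at least 1 FPKM in 2 or more libraries were tested, and none of them passed only through the busulfan libraries. Of these 29, the set comparable with those shares, 24 were lower in both Cus-1 libraries, 1 was higher and 4 overlapped. Their median log2 fold change on the log2(FPKM + 1) scale was -0.61, against 0.04 for all tested genes, and -0.37 without busulfan 1. The sign depends on what the libraries are scaled to. The median was -0.75 after quantile normalization and -0.03 when each library was centred on macrophage genes, and it turned to 0.09 when each was centred on Sertoli cell genes. Relative to the median of all tested genes it was -0.65 as deposited, which centring cannot alter, and -0.69 after quantile normalization. Taking in the 5 genes under the filter, the median of all 34 was -0.60. In bulk tissue, fewer cells of a type and less RNA per cell cannot be told apart.

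No gene in the table passed the adjusted threshold of 0.05 in limma, 0% of 19837, and the adjusted p of the 29 tested genes ran from 0.152 to 0.893. At an unadjusted limma p under 0.05, 10 of the 29 were lower, against 9.96% of all tested genes. None was higher, against 18.0% of all tested genes. The count of 10 became 2 without Cus-1 1, where 4.29% of all tested genes were lower, and 2 without busulfan 1, where 1.95% were. Without Cus-1 2, 4 of these genes passed the adjusted threshold, namely Irf2, Bst2, Ifitm3 and Ifi27, in a fit in which 2289 genes of the whole table (12.2%) passed.

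**Figure D1:**
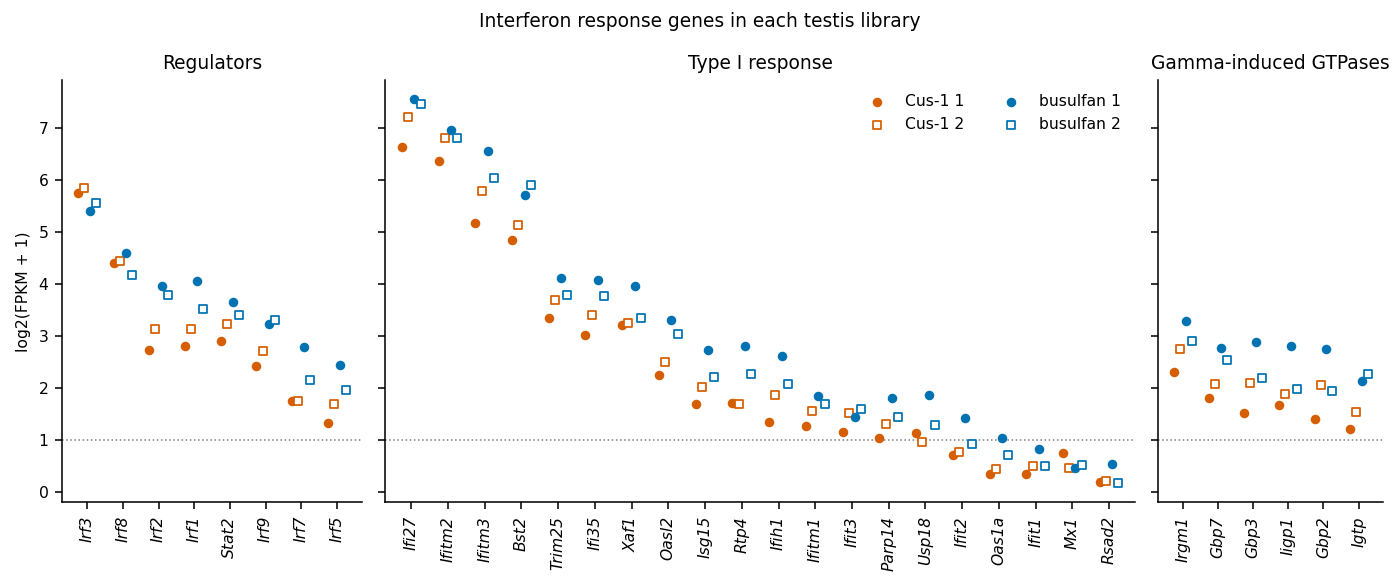
Level of each of the 34 interferon response genes as log2(FPKM + 1) in the 2 libraries with busulfan and Cus-1 (orange) and the 2 with busulfan alone (blue), in order of mean level within each group of genes. The dotted line marks 1 FPKM; for most genes both orange points lie below both blue points, Irf3 being the exception with both above.

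The promoters of these genes carry the 2 known response elements more often than promoters at large. RefSeq windows of 250 bases before to 50 bases after the start site (GRCm38.p6, the same assembly as mm10) were found for 28 of the 34 genes. ISRE was searched on both strands as 2 copies of GAAA with 2 free bases between them, and GAS as TTCNNNGAA, which reads the same on both strands. ISRE stood in at least 1 window of 16 of the 28 genes (57.1%), against 3.99% of 27025 genes in the RefSeq table, and GAS in 10 (35.7%), against 9.55%. By group, ISRE stood in 5 of 5 GTPase genes with a window, 9 of 15 type I genes and 2 of 8 regulators. GAS stood in 2 of the 5 GTPase genes, 5 of the 15 type I genes and 3 of the 8 regulators. A match is a description of the letters and not a measured binding site. The following windows are shown because they belong to genes that stand for the 3 groups, and to Irf3, which differed in direction. They are written 5′ to 3′ in the direction of the gene, and capitals mark ISRE and GAS matches, which can overlap.
Isg15, chr4:156200769-156201068, minus strand: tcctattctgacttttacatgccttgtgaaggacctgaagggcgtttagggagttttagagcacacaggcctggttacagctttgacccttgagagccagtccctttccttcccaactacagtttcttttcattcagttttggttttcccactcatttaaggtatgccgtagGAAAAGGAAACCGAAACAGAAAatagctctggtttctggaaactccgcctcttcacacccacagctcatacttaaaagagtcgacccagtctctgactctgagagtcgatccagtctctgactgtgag
Bst2, chr8:71537423-71537722, minus strand: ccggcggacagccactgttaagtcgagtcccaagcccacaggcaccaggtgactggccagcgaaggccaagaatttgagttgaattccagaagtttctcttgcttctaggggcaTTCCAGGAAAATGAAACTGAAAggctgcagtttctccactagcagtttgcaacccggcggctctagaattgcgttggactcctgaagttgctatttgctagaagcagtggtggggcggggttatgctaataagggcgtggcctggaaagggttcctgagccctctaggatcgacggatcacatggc
Igtp, chr11:58199306-58199605, plus strand: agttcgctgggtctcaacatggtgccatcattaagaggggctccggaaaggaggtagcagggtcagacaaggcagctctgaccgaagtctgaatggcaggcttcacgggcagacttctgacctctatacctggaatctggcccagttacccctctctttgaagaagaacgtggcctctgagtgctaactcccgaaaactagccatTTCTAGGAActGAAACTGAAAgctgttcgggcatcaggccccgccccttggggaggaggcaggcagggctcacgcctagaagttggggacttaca
Irf1, chr11:53769764-53770063, plus strand: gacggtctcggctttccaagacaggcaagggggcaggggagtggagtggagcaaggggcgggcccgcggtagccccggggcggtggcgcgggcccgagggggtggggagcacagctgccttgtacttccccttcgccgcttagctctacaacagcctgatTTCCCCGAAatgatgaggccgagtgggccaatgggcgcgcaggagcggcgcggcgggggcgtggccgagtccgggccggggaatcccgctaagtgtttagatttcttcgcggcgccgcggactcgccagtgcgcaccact
Irf3, chr7:44997398-44997697, plus strand: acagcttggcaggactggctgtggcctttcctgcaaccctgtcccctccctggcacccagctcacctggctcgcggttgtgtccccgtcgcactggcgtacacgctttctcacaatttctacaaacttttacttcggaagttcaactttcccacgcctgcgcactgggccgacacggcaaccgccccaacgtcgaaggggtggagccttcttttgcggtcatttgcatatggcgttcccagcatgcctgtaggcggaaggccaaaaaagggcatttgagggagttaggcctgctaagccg
The Isg15 window holds 3 overlapping ISRE matches, the first of which begins at base -78 from the start site. The Bst2 window holds 2 overlapping ISRE matches beginning at -130 and -124, and a GAS match at -136 that overlaps the first. In the Igtp window a GAS match at -45 is followed by an ISRE match at -34. The Irf1 window has a GAS match at -90 and no ISRE match, and the Irf3 window has neither. Irf5, Irf7, Irf9, Oasl2, Ifitm1, Xaf1 and Trim25, all lower in both Cus-1 libraries, also had neither match in any window. Irf8, whose groups overlapped, had 2 GAS matches, at -171 and -153. A link between matches and direction was not tested.

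The regulators went in different directions. Irf3, the transcription factor that sensors of viral nucleic acid activate and that is made without prior interferon, was the 1 gene of the 34 that was higher in both Cus-1 libraries. It was at 53.1 and 56.7 FPKM with Cus-1 and at 41.5 and 46.1 FPKM with busulfan (log2 fold change 0.32, SE 0.15, limma adjusted p = 0.211). The difference was 0.21 after quantile normalization and between 0.25 and 0.40 with a library left out. Irf3 shares 88 exon bases (2.6% of its own) with Bcl2l12 on the opposite strand, which was also higher with Cus-1, at 41.0 and 33.7 FPKM against 23.8 and 28.3 FPKM. Without a stated strand setting, reads of the shared bases cannot be told apart. Irf8, a factor of macrophages and dendritic cells, overlapped between the groups, with 20.4 and 20.8 FPKM with Cus-1 and 23.3 and 17.1 FPKM with busulfan. Its log2 fold change of 0.04 had a 95% interval from -0.48 to 0.56, so a difference in either direction within that interval could not be seen at this replication.

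The other 6 regulators were lower in both Cus-1 libraries, as were 31.7% of all tested genes. Irf2, a partner and antagonist of Irf1, had the largest difference, with 5.68 and 7.81 FPKM with Cus-1 and 14.6 and 12.9 FPKM with busulfan (log2 fold change -0.94, SE 0.22, adjusted p = 0.152). Irf1, which interferon gamma induces, was at 6.01 and 7.75 FPKM with Cus-1 against 15.7 and 10.5 FPKM with busulfan, a difference of -0.83 (SE 0.26) on the log2 scale. Irf9, the DNA-binding partner of STAT2, was at 4.38 and 5.58 FPKM against 8.44 and 8.92 FPKM. These 3 were the regulators lower at an unadjusted limma p under 0.05, as were 9.96% of all tested genes. Stat2 was at 6.49 and 8.41 FPKM with Cus-1 and at 11.7 and 9.58 FPKM with busulfan, the smallest difference of the 6 (-0.46, SE 0.22). Irf7, the factor that amplifies type I interferon production, was nearly the same in both Cus-1 libraries, at 2.36 and 2.35 FPKM, and spread between 5.91 and 3.43 FPKM with busulfan. Irf5 was at 1.51 and 2.23 FPKM against 4.45 and 2.90 FPKM, and 14.1% of its exon bases lie opposite exons of Tnpo3, which was at 30.0 to 32.2 FPKM in all libraries, so its level is uncertain. Relative to Sertoli cell genes, Irf5, Irf9 and Stat2 changed sign, and Irf1, Irf2 and Irf7 stayed negative at -0.12, -0.24 and -0.02. The median of the 8 regulators was -0.70, and -0.43 without busulfan 1.

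The type I response genes were mostly lower with Cus-1 as deposited, and their median of -0.59 over 15 tested genes turned to 0.12 when libraries were centred on Sertoli cell genes. It was -0.35 without busulfan 1. Of the 15, 13 had both Cus-1 values under both busulfan values, against 31.7% of all tested genes, and 2 overlapped. Bst2, which encodes tetherin and holds budding virus at the cell surface, had the smallest p of the 34 genes (0.00576, adjusted 0.152). It was at 27.9 and 34.3 FPKM with Cus-1 and at 51.5 and 59.4 FPKM with busulfan, a log2 fold change of -0.82 (SE 0.18). Its promoter is the second shown above. Among the other genes with an unadjusted p under 0.05, Oasl2, a relative of the oligoadenylate synthetases, was at 3.77 and 4.67 FPKM with Cus-1 and at 8.92 and 7.24 FPKM with busulfan. Rtp4, a chaperone of membrane receptors that interferon induces, was at 2.29 and 2.24 FPKM against 6.0 and 3.84 FPKM (-0.83, SE 0.27), and 13.9% of its exon bases are shared with Gm45338 on the same strand. For Oasl2 the gap between the groups was wider than the spread within either, and for Rtp4 the busulfan libraries lay farther apart than that gap.

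The interferon-induced membrane proteins, which block entry of viruses, differed among themselves. Ifitm3 was at 35.3 and 54.9 FPKM with Cus-1 and at 93.2 and 65.0 FPKM with busulfan (-0.81, SE 0.29, adjusted p = 0.167). Ifitm2 was at 82.3 and 111 FPKM against 124 and 111 FPKM, and its groups overlapped. Ifitm1 was far less abundant, at 1.41 and 1.93 FPKM against 2.58 and 2.25 FPKM. The 3 genes lie close together on chromosome 7, between bases 140954837 and 141010770 of GRCm38, and 40.9% of the exon bases of Ifitm2 are shared with the annotated gene Gm45717 on the same strand, so the level of Ifitm2 is uncertain. Relative to Sertoli cell genes and to macrophage genes Ifitm3 stayed negative, at -0.10 and -0.23, while Ifitm1 and Ifitm2 turned positive in both scalings.

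Ifi27, a small mitochondrial and nuclear membrane protein, was the most abundant of the 34, at 98.4 and 148 FPKM with Cus-1 and at 188 and 176 FPKM with busulfan (-0.59, SE 0.23). Ifi35, a partner of NMI, was at 7.13 and 9.66 FPKM with Cus-1 against 15.8 and 12.7 FPKM with busulfan, with an unadjusted p of 0.0286, and 16.8% of its exon bases lie opposite the antisense gene Gm11626. Isg15, the ubiquitin-like modifier, was at 2.24 and 3.04 FPKM with Cus-1 and at 5.63 and 3.61 FPKM with busulfan. Isg15 has only 756 exon bases, and these values stand for an estimated 24 to 54 fragments. Usp18, which removes Isg15 from proteins and dampens the type I receptor, was at 1.18 and 0.95 FPKM against 2.63 and 1.44 FPKM. Both genes were highest in busulfan 1, and neither had an unadjusted p under 0.05 (0.0861 and 0.135).

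Ifih1, the RNA sensor MDA5, was at 1.53 and 2.66 FPKM with Cus-1 and at 5.17 and 3.19 FPKM with busulfan. Trim25, the ubiquitin ligase that activates RIG-I, was at 9.19 and 12.0 FPKM with Cus-1 against 16.5 and 12.9 FPKM. Its 2 middle libraries lay close together. Parp14, an ADP-ribosyltransferase, was at 1.05 and 1.48 FPKM with Cus-1 and at 2.52 and 1.70 FPKM with busulfan. Xaf1, which promotes cell death, was at 8.33 and 8.56 FPKM with Cus-1 and at 14.7 and 9.18 FPKM with busulfan, so that most of its difference came from busulfan 1. Without that library its log2 fold change was -0.11 in place of -0.42. Ifit3, a binder of viral RNA, overlapped at 1.22 and 1.87 FPKM against 1.71 and 2.0 FPKM, and its near-copy Ifit3b may share its reads.

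Several of the best known type I genes lay under the filter. Ifit1, Ifit2, Oas1a, Mx1 and Rsad2 did not reach 1 FPKM in 2 libraries and lay between 0.12 and 1.69 FPKM. For Oas1a the values stand for an estimated 7 to 25 fragments per library, for Ifit1 for 10 to 26 and for Ifit2 for 34 to 84. Ifit2 was at 0.63 and 0.71 FPKM with Cus-1 and at 1.69 and 0.88 FPKM with busulfan, and Oas1a at 0.27 and 0.35 FPKM against 1.04 and 0.63 FPKM, lower in both Cus-1 libraries. Mx1, the antiviral dynamin-like GTPase, was at 0.68 and 0.38 FPKM with Cus-1 and at 0.37 and 0.43 FPKM with busulfan, and Rsad2, which encodes viperin, at 0.14 and 0.16 FPKM against 0.44 and 0.12 FPKM. The groups overlapped in Ifit1, Mx1 and Rsad2.

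The 6 GTPase genes induced by interferon gamma all had negative log2 fold changes as deposited, between -0.83 and -0.57, and their median of -0.66 turned to 0.05 relative to Sertoli cell genes. These proteins coat and break vacuoles that hold intracellular bacteria and parasites. Igtp, also known as Irgm3, was at 1.32 and 1.91 FPKM with Cus-1 and at 3.4 and 3.83 FPKM with busulfan (-0.83, SE 0.25, adjusted p = 0.152). It had the smallest p of the 6. Gbp7 was at 2.50 and 3.24 FPKM with Cus-1 and at 5.80 and 4.81 FPKM with busulfan (-0.71, SE 0.24), the other member of this group with an unadjusted p under 0.05. Igtp stayed at -0.12 relative to Sertoli cell genes and -0.25 relative to macrophage genes, and Gbp7 was at 0.00 and -0.13.

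Like Gbp7, the remaining 4 GTPase genes were highest in busulfan 1. Irgm1, which guards the cell's own membranes, was at 3.95 and 5.71 FPKM with Cus-1 and at 8.80 and 6.45 FPKM with busulfan. Iigp1 on chromosome 18 was at 2.17 and 2.71 FPKM with Cus-1 against 5.96 and 2.93 FPKM. Without busulfan 1 its log2 fold change was -0.20 in place of -0.61. Gbp3 was at 1.86 and 3.29 FPKM with Cus-1 and at 6.41 and 3.54 FPKM with busulfan, and Gbp2 overlapped at 1.65 and 3.18 FPKM against 5.77 and 2.82 FPKM. Gbp2, Gbp3 and Gbp7 stand together on chromosome 3, between bases 142530342 and 142638008 of GRCm38, and are similar in sequence, as Igtp and Irgm2 share 162 exon bases, so reads may be divided between neighbours. The median of the 6 was -0.37 without busulfan 1.

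**Figure D2:**
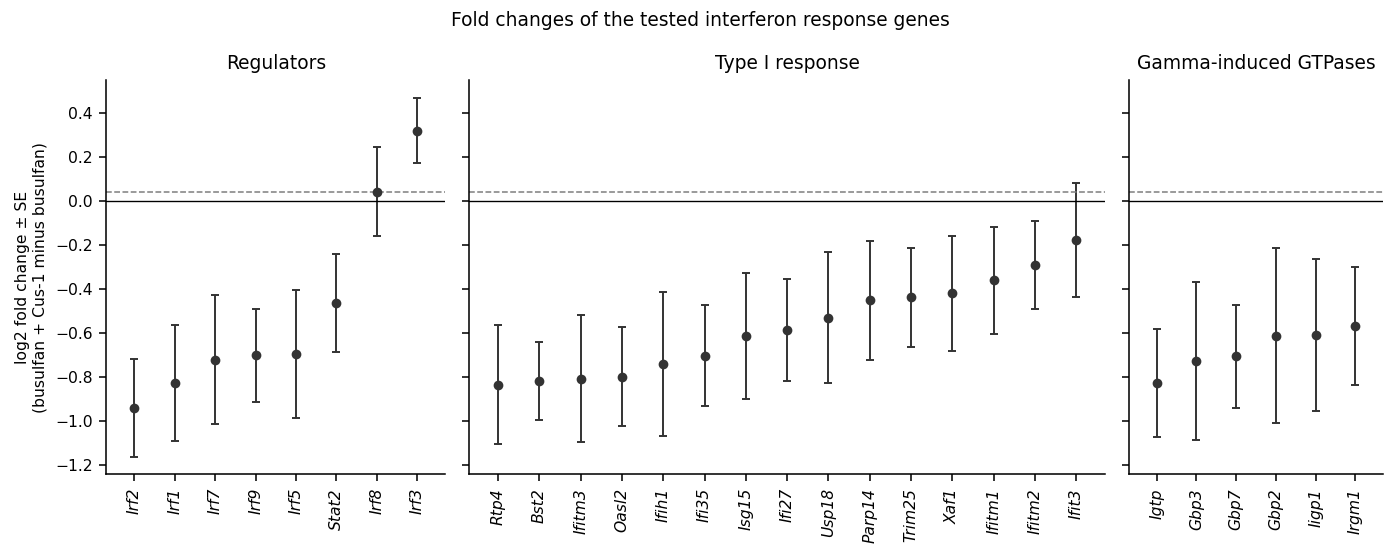
Log2 fold change (busulfan with Cus-1 minus busulfan, log2(FPKM + 1) scale) with its standard error from limma for the 29 tested interferon response genes; the dashed line is the median of all tested genes at 0.04. Only Irf3 and Irf8 lie at or above that line as deposited, and centring libraries on Sertoli cell genes, which shifts every gene alike, brings the median of the 29 from -0.61 to 0.09.

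The libraries formed a ladder within the groups. Busulfan 1 was the highest library for 24 of the 29 tested genes and Cus-1 1 the lowest for 24. The full order with busulfan 1 highest, then busulfan 2, Cus-1 2 and Cus-1 1, was followed by 18 of the 29, against 19.4% of all tested genes. It was also followed by 14 of 15 Sertoli cell markers and 11 of 20 macrophage markers. The summed FPKM of the 34 genes was 399 and 532 with Cus-1 and 704 and 610 with busulfan, so that Cus-1 2 and busulfan 2 lay closer to each other than either did to the other library of its group.

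The rest of the pathway was examined next, from its ligands to its targets. Of 10 interferon genes sought, 4 had a row, and all were at or near 0. Ifng, the gene of interferon gamma, was listed at 0 in both Cus-1 libraries and at 0.07 and 0.06 FPKM with busulfan. Ifnl2 and Ifnl3, genes of type III interferon, were also listed at 0 in both Cus-1 libraries, and at 0.45 and 0.27 FPKM and 0.43 and 0.19 FPKM with busulfan. These near-identical genes may share reads, and such values rest on few fragments.

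Among 10 tested receptors and signal carriers, 9 had both Cus-1 values under both busulfan values, against 31.7% of all tested genes. The median of the 10 was -0.62 as deposited and turned to 0.09 relative to Sertoli cell genes. At an unadjusted limma p under 0.05, 5 of the 10 were lower and 0 higher, against 9.96% and 18.0% of all tested genes. Ifnar2 was at 21.4 and 32.3 FPKM with Cus-1 and at 51.8 and 41.2 FPKM with busulfan (-0.79, SE 0.25), while its partner Ifnar1 was at 18.8 and 18.6 FPKM against 27.0 and 19.98 FPKM (-0.30, SE 0.20). The receptor genes for interferon gamma were at 17.0 and 23.5 FPKM with Cus-1 and 36.9 and 29.2 FPKM with busulfan for Ifngr1, and at 17.5 and 21.2 FPKM against 37.3 and 24.0 FPKM for Ifngr2. In all 4 of these receptor genes both Cus-1 values lay under both busulfan values, but the busulfan libraries lay farther apart than the gap between the groups.

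Stat3, better known as a target of cytokine receptors of the interleukin family, was at 27.4 and 33.4 FPKM with Cus-1 against 47.5 and 45.4 FPKM with busulfan, and Jak1 at 32.7 and 38.8 FPKM against 64.0 and 48.9 FPKM. The chain Il10rb, shared by the type III receptor, was at 23.7 and 32.3 FPKM with Cus-1 and at 59.8 and 36.6 FPKM with busulfan, and Ifnlr1 lay between 0.42 and 0.89 FPKM. Tyk2 overlapped between the groups, with a log2 fold change of 0.07 and a 95% interval from -0.41 to 0.56.

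Brakes and sensors held genes of both directions, and among all tested genes 31.7% were lower and 36.6% higher in both. Of the 7 brakes 3 were lower and 2 higher in both Cus-1 libraries, with a median of 0.03 that was between -0.20 and 0.08 with a library left out. Ptpn6, a phosphatase of blood cells, was at 2.16 and 2.81 FPKM with Cus-1 and at 6.56 and 4.97 FPKM with busulfan, and Socs3 at 1.43 and 2.58 FPKM against 6.86 and 3.44 FPKM. Pias1, a SUMO ligase that inhibits cytokine signalling, lay the other way at 62.0 and 46.1 FPKM against 27.7 and 41.4 FPKM (0.64, SE 0.26), and Ptpn11 had a difference of -0.38 (SE 0.22). Of the 10 tested sensors and adaptors, 4 were lower and 1 higher in both, with a median of -0.30 that was -0.09 without busulfan 1 and -0.48 without busulfan 2. Tbk1, the kinase that activates IRF3, was at 12.7 and 16.9 FPKM with Cus-1 and at 23.2 and 25.3 FPKM with busulfan (-0.69, SE 0.20), opposite to Irf3. Mavs, the adaptor of RNA sensors, was at -0.47 (SE 0.17), Ticam1 at -0.57 (SE 0.25) and Rigi at -0.49 (SE 0.25). The gene that was higher, Dhx58, chosen for this after its values were seen, was at 26.4 and 18.2 FPKM with Cus-1 and at 15.95 and 17.3 FPKM with busulfan.

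Further interferon targets outside the 34 resembled them. Of 23 other type I genes tested, 17 were lower and 3 higher in both Cus-1 libraries, against 31.7% and 36.6% of all tested genes. The median of the 23 was -0.54, and -0.31 without busulfan 1. This median turned to 0.17 relative to Sertoli cell genes and 0.04 relative to macrophage genes. Among the 17, Ddx60 passed the low-value filter only through the busulfan libraries, which fixed its direction, at 0.93 and 0.78 FPKM with Cus-1 and 2.16 and 1.35 FPKM with busulfan. Samd9l, a growth-restraining antiviral gene, was at 6.40 and 7.91 FPKM with Cus-1 and at 14.2 and 15.5 FPKM with busulfan (-0.96, SE 0.19). Lgals3bp, Zc3hav1 and Sp100 had log2 fold changes of -0.93, -0.82 and -0.74. The 3 that were higher, named after their values were seen, were Isg20, Parp12 and Herc6, with 0.81, 0.23 and 0.17. Isg20, an exonuclease, was at 20.5 and 9.72 FPKM with Cus-1 and at 6.11 and 9.62 FPKM with busulfan, so that Cus-1 2 and busulfan 2 hardly differed. At an unadjusted limma p under 0.05, 6 of the 23 were lower and 0 higher, against 9.96% and 18.0% of all tested genes.

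Of the 7 other GTPase genes tested, 5 were lower and 0 higher in both Cus-1 libraries, against 31.7% and 36.6% of all tested genes. The median of the 7 was -0.60, which became 0.11 relative to Sertoli cell genes and -0.22 without busulfan 1. Gbp6, counted among the 5, was at 0.16 and 0.02 FPKM with Cus-1 and at 1.40 and 1.75 FPKM with busulfan (-1.24, SE 0.25). Gbp6 passed the low-value filter only through the busulfan libraries, so the filter fixed its direction and it cannot count as support. Its neighbour in the family Gbp8, named after its values were seen, was at 0.09 and 0.02 FPKM against 0.50 and 0.41 FPKM. Gbp5, Irgm2 and Ifi47 had log2 fold changes of -0.56, -0.60 and -0.65.

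The class II presentation genes, which interferon gamma induces through Ciita, showed the widest gap of the lists examined. Of 6 tested, 5 were lower in both Cus-1 libraries, against 31.7% of all tested genes. At an unadjusted limma p under 0.05, 5 were lower, against 9.96% of all tested genes. The median was -1.44. It stayed negative at -0.74 relative to Sertoli cell genes and -0.86 relative to macrophage genes. H2-Aa was at 11.2 and 11.6 FPKM with Cus-1 and at 54.7 and 32.5 FPKM with busulfan, H2-Eb1 at 4.39 and 3.88 FPKM against 16.2 and 12.1 FPKM, and H2-Ab1 at 11.1 and 11.5 FPKM against 30.1 and 20.3 FPKM. Cd74, the invariant chain, had a log2 fold change of -2.01 (SE 0.21). For these 4 genes both Cus-1 libraries were close to each other and far below busulfan 2. Ciita itself was at 0.10 and 0.09 FPKM with Cus-1 and at 0.28 and 0.11 FPKM with busulfan, too low to test. B cell markers lay the same way, with a summed level of 5.23 and 3.72 FPKM for 5 genes against 16.4 and 13.5 FPKM. Among them Ighm was at 3.43 and 2.63 FPKM with Cus-1 and at 14.0 and 10.2 FPKM with busulfan, while Cd79a and Ms4a1 were at 0 to 0.12 FPKM. Their part in the class II values was not tested.

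**Figure D3:**
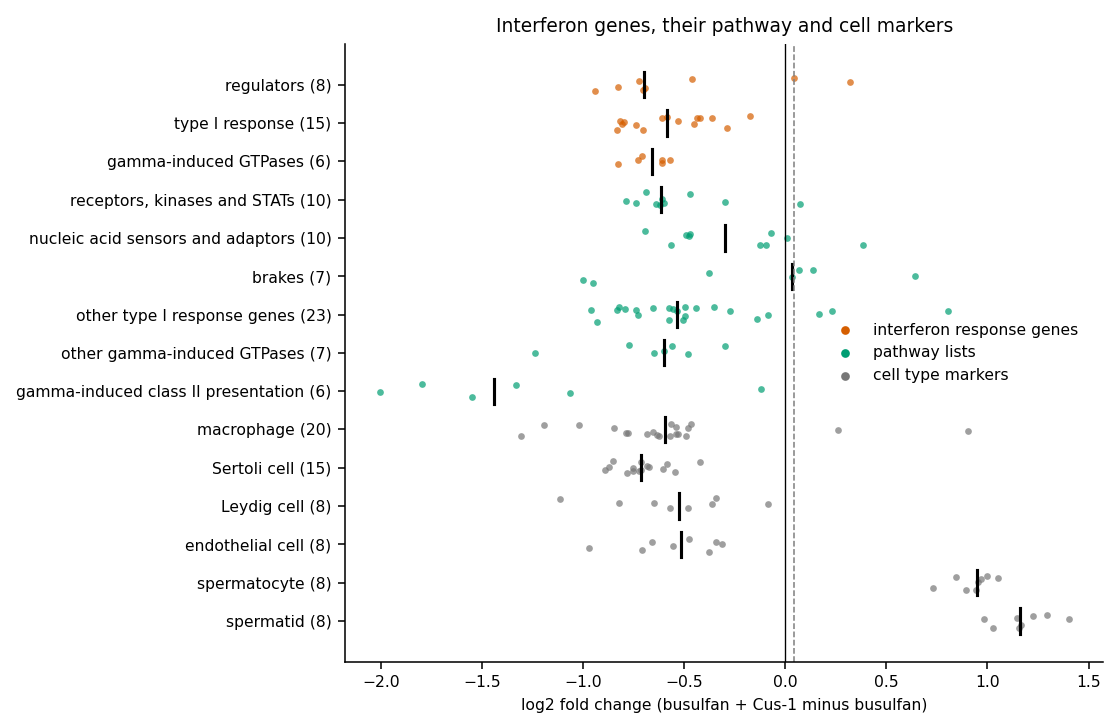
Log2 fold change (busulfan with Cus-1 minus busulfan) of each tested gene in the interferon lists (orange), the rest of the pathway (green) and cell type markers (grey), with the number tested in brackets and the median as a black bar; the dashed line is the median of all tested genes at 0.04. As deposited, the interferon medians (-0.70, -0.59 and -0.66) lie among those of macrophage (-0.60) and Sertoli cell (-0.71) markers, and they turn slightly positive when libraries are centred on Sertoli cell genes.

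Most markers of macrophages and all those of Sertoli cells had lower values with Cus-1 as deposited, as most interferon response genes did. Of 20 macrophage markers 13 were lower and 2 higher in both Cus-1 libraries, against 31.7% and 36.6% of all tested genes. Their median was -0.60, and their summed level was 627 and 793 FPKM with Cus-1 against 1104 and 877 FPKM with busulfan. All 15 Sertoli cell markers were lower in both, with a median of -0.71 and a sum of 4319 and 5401 FPKM against 8933 and 6801 FPKM. Leaving out busulfan 1 or Cus-1 1 gave a macrophage median of -0.37 in each case. Of 8 Leydig cell markers 5 were lower in both and 3 overlapped, with a median of -0.53 that became -0.23 when Cus-1 1 was left out and -0.87 when Cus-1 2 was. The median of 8 endothelial markers was -0.52. Of 6 peritubular myoid markers 1 was lower in both and 5 overlapped, with a median of -0.28 that was -0.05 without busulfan 1. The 8 spermatocyte markers had a median of 0.95, and 0.60 without busulfan 1. The 8 spermatid markers had a median of 1.16, and 0.46 without Cus-1 1, their summed level being 11230 and 4064 FPKM with Cus-1 and 3015 and 3105 FPKM with busulfan. T and NK cell markers were nearly absent, Cd8a lying at 0 to 0.04 FPKM and Cd3e at 0.13 to 0.81 FPKM, and only Cd3d of the 10 reached the filter, at 18.8 and 13.8 FPKM with Cus-1 and 2.17 and 14.4 FPKM with busulfan. The summed level of those 10 was 20.8 and 15.5 FPKM against 5.4 and 16.9 FPKM. Of 7 dendritic cell markers 2 reached the filter, Ly6d at 2.03 and 23.5 FPKM with Cus-1 and 15.7 and 16.7 FPKM with busulfan, and Zbtb46 at 3.78 and 2.78 FPKM against 3.52 and 2.37 FPKM. The summed level of the 7 was 7.22 and 27.4 FPKM with Cus-1 and 20.6 and 20.3 FPKM with busulfan, while Siglech, Ccr9, Xcr1 and Clec9a lay between 0 and 0.48 FPKM. The part of these markers in the interferon gene values was not tested.

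Measured against macrophage and Sertoli cell markers, the interferon response genes stood close to them. With libraries centred on macrophage genes, 18 of the 29 had a negative and 11 a positive log2 fold change, and 0 were lower and 1 higher at an unadjusted limma p under 0.05, against 0.363% and 33.0% of all tested genes. With Sertoli cell genes as the measure, 11 were negative and 18 positive, and 0 were lower and 2 higher at that p, against 0.308% and 47.1% of all tested genes. Centring shifts every gene by the same amount. The median of all tested genes moved to 0.62 and 0.75 in these scalings. Irf3 stood at 0.90 relative to macrophage genes and 1.03 relative to Sertoli cell genes, and Irf8 at 0.62 and 0.75, which is the median of all tested genes in each. Irf2 had the lowest value, at -0.36 and -0.24.

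**Figure D4:**
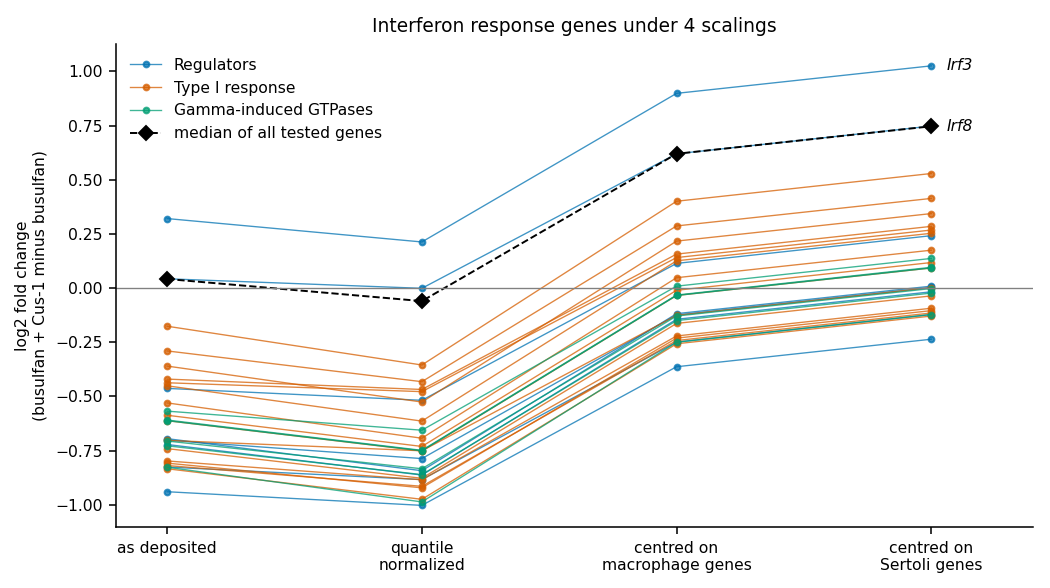
Log2 fold change (busulfan with Cus-1 minus busulfan) of the 29 tested interferon response genes under 4 scalings of the libraries, each line being 1 gene and the black diamonds the median of all tested genes. Of the 29, 27 lie between -0.94 and -0.18 as deposited and straddle 0 when libraries are centred on macrophage or Sertoli cell genes, while Irf3 lies above the median of all genes as deposited and after quantile normalization.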

How the data were processed

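Testis RNA of 4 samples was measured as FPKM in a table the authors deposited. The submitters' processing notes name mm10 as the build. Aligner, counter, annotation and strand setting: not given in the sources used here. Library names in the labels tied each column to its sample. Rows without a gene name (0.641% to 0.688% of summed FPKM) were left out, and of 115 symbols on several rows the highest mean was kept. The filter asked for 1 FPKM in 2 of 4 libraries. log2(FPKM + 1) was then fitted with limma 3.58.1 (R 4.3.3, variance trend), and p-values of 19837 genes were adjusted after Benjamini and Hochberg. The procedure was tested on simulated data with independent genes and larger differences than those of the interferon response genes. Such data cannot show its power for differences of the size seen here. An exact permutation test of 2 against 2 cannot go below 0.333. Fold changes on this scale understate low genes. Depth was estimated from genes with 1 transcript in GENCODE M21, from the first peak of FPKM times length. Estimated fragments use exon lengths from the same annotation, and intervals and fragments cover neither effective length nor multiple mapping. Windows were taken from RefSeq.

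The 34 genes and all lists were chosen with earlier results of these data known. By the naming rule, every tested gene of the 34 is given per library, and from each pathway list up to 4 tested genes with the smallest p and the receptor genes, except for an item that is not reported here. Alternatives changed the pseudocount, filter, scaling, variance trend and libraries.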

Additional observations from a re-analysis of the deposited data

How the results depend on the processing

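Under the pseudocount of 0.1, all 29 tested interferon response genes kept the directions reported. The filters (none, 5 FPKM) and the variance trend do not enter a gene's fold change, so its direction could not change with them. The 5 FPKM filter kept 15 of the 29, and 1 of the 6 GTPase genes. No paired analysis was possible because the labels share no replicate numbers between groups. Genes of the whole table past the adjusted threshold numbered 0 as reported and with each busulfan library left out, 2 centred on Sertoli cell genes and 7 on macrophage genes, and 0 to 2289 over the libraries left out (2289 without Cus-1 2, 45 without Cus-1 1). With 1 library left in a group, that library is assumed to vary like the other group. Members lower at an unadjusted p under 0.05 numbered 10, 0 in both centred scalings and 2 to 13 with a library left out, and higher ones 0, 2 (Sertoli) and 1 (macrophage). With a library left out the medians ran from -0.80 to -0.43 for regulators, -0.77 to -0.35 for type I genes and -0.92 to -0.37 for GTPases. Centred on macrophage genes they were -0.12, -0.0096 and -0.082, and on Sertoli cell genes 0.0062, 0.12 and 0.046. Signs that turned on Sertoli genes were those of Irf5 (0.0094), Irf9 (0.0030), Stat2 (0.24), Isg15 (0.093), Usp18 (0.18), Ifit3 (0.53), Ifitm1 (0.34), Ifitm2 (0.41), Ifi27 (0.12), Ifi35 (0.0019), Xaf1 (0.28), Parp14 (0.25), Trim25 (0.27), Gbp2 (0.093), Irgm1 (0.14) and Iigp1 (0.096). On macrophage genes they were Stat2 (0.11), Usp18 (0.048), Ifit3 (0.40), Ifitm1 (0.22), Ifitm2 (0.29), Xaf1 (0.16), Parp14 (0.13), Trim25 (0.14) and Irgm1 (0.0091). Irf8 turned to -0.00056 after quantile normalization and ran from -0.17 to 0.26 with a library left out, and Ifit3 from -0.36 to 0.0094. A centred scaling subtracts the marker list's own difference from every gene, which by construction moves all values alike. The cause of the other shifts was not tested. Ifit1, Oas1a, Mx1 and Rsad2 rest on few fragments, an estimated 7 to 36 per library, and Ifit2 rests on 34 to 84.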

Other observations

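Relatives of these genes that stand outside the 34, chosen after their values were seen, did not all follow them. Ifitm7, a member of the same family as Ifitm1, Ifitm2 and Ifitm3, was at 81.2 and 65.9 FPKM with Cus-1 and at 31.6 and 36.6 FPKM with busulfan (log2 fold change 1.08, SE 0.18, limma adjusted p = 0.152). Irgc, a member of the IRG family known for its expression in male germ cells, was at 179 and 70.3 FPKM with Cus-1 and at 39.0 and 47.6 FPKM with busulfan (1.36, SE 0.45, adjusted p = 0.160). Both were higher in both Cus-1 libraries, as all 8 spermatocyte and all 8 spermatid markers were. Of 7 spermatogonium markers 4 were lower in both, 2 were higher and 1 overlapped, with a median of -0.25. Gfra1, counted among those 4, passed the low-value filter only through the busulfan libraries, which fixed its direction. Among all tested genes 31.7% were lower and 36.6% higher in both Cus-1 libraries. Of 9 tested genes of the IRG family 6 were lower in both Cus-1 libraries, 1 was higher and 2 overlapped, and of 4 tested Ifitm genes 2 were lower, 1 was higher and 1 overlapped. All 6 tested Gbp genes had negative differences as deposited, with 5 lower in both Cus-1 libraries and 1 overlapping. Gbp6, counted among the 5, passed the low-value filter only through the busulfan libraries, so it cannot count as support. The part of germ cell abundance in these values was not tested.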
